A study of Mus musculus with 12 samples.

Results

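Tight junctions seal the space between neighbouring epithelial cells, and 9 genes of that seal were followed across the mouse liver transcriptomes: the claudins *Cldn1*, *Cldn2*, *Cldn3*, *Cldn4*, *Cldn6*, *Cldn7* and *Cldn12*, occludin (*Ocln*) and the scaffold ZO-1 (*Tjp1*). They were taken by name from the 25676 genes of the deposited table, and all 9 were found. The tissue was whole liver from C57BL/6 mice aged 3 to 4 months, with 1 sequencing library from each of 12 mice. The WT group held 3 male and 3 female mice given as WT. The KO group held 3 male and 3 female mice whose *Yap1*, the gene of a transcriptional co-activator, was removed by Cre recombinase under the *Foxa3* promoter. *Foxa3* is active in the embryonic endoderm that gives rise to hepatocytes and bile duct cells. Whether the WT mice carried Cre or a floxed allele is not given in the sources used here.

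In liver, tight junctions between hepatocytes close the bile canaliculus off from blood, and those between cholangiocytes close the bile duct. Claudins are the membrane proteins that set what passes between the cells: some, such as claudin-1 and claudin-3, tighten the seal, and claudin-2 forms a channel for small cations and water. Occludin lies in the same strands, and ZO proteins tie both to actin. Claudin-4 and claudin-7 are background markers of ductal and other simple epithelia rather than of hepatocytes, and claudin-6 belongs to embryonic epithelia.

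Values were TPM (transcripts per 1000000, a share of each library corrected for gene length), tested as log2(TPM + 1). Recovered depths were 19652110 to 27827163 reads per library. *Yap1* was 23.0 to 34.9 TPM in the WT mice and 0.994 to 3.11 TPM in the KO mice, and the ranges did not overlap. Of the hepatocyte markers, *Alb* reached 42088 to 83194 TPM over all libraries, and the duct-defining *Cftr* and *Sctr* did not pass 0.121 TPM in any. On the deposited scale the typical gene lay higher in KO: the median log2 difference over the 12278 genes tested was 0.35. After the libraries were rescaled by median-of-ratios size factors, which set the typical gene equal between libraries, it was -0.04 over 12213 genes. The genotype differences over all 12 mice are therefore given on both scales, since the TPM alone do not say which one holds for the amount of RNA in a liver. Levels and sums are in deposited TPM. In bulk tissue, fewer cells of a type and less RNA per cell cannot be told apart.

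The genotype comparison asked how the barrier genes differed between livers with and without *Yap1*. *Cldn7*, *Ocln*, *Cldn2* and *Cldn3* were higher in KO livers on both scales, and *Cldn7* had by far the largest difference of the members. *Cldn1* and *Tjp1* passed the test on the deposited scale and not after rescaling. *Cldn4* passed on the deposited scale and was too low to test after rescaling. *Cldn12* was level on the deposited scale and lower in KO after rescaling, and *Cldn6* stayed too low to test. In limma with Benjamini-Hochberg adjustment over all genes, 7 of the 8 members tested were higher and 0 lower on the deposited scale (also 0 lower at an unadjusted p under 0.05), where 50.1% of all genes tested were called higher and 4.82% lower. *Cldn4* and *Cldn7* met the cut for testing, a mean of 0.5 TPM, only through their KO values (WT means 0.199 and 0.248 TPM). Members so admitted could hardly be called lower, so where tested they add little to the counts in this paragraph. Voom on the recovered reads, added after seeing the data, called 5 of 8 higher (20.9% of all genes), namely *Cldn7*, *Ocln*, *Cldn3*, *Cldn4* and *Cldn2*, and 1 lower, *Cldn12* (18.5% of all genes). After rescaling, 4 of 7 were higher and 1 lower, where 20.6% of all genes were called higher and 18.8% lower. The median log2 difference of the members was 0.90 on the deposited scale and 0.51 after rescaling. All 6 KO values lay above all 6 WT values for 6 of 8 members on the deposited scale (28.7% of all genes) and for 2 of 7 after rescaling (10.6%), *Cldn7* and *Ocln*.

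**Figure D1:**
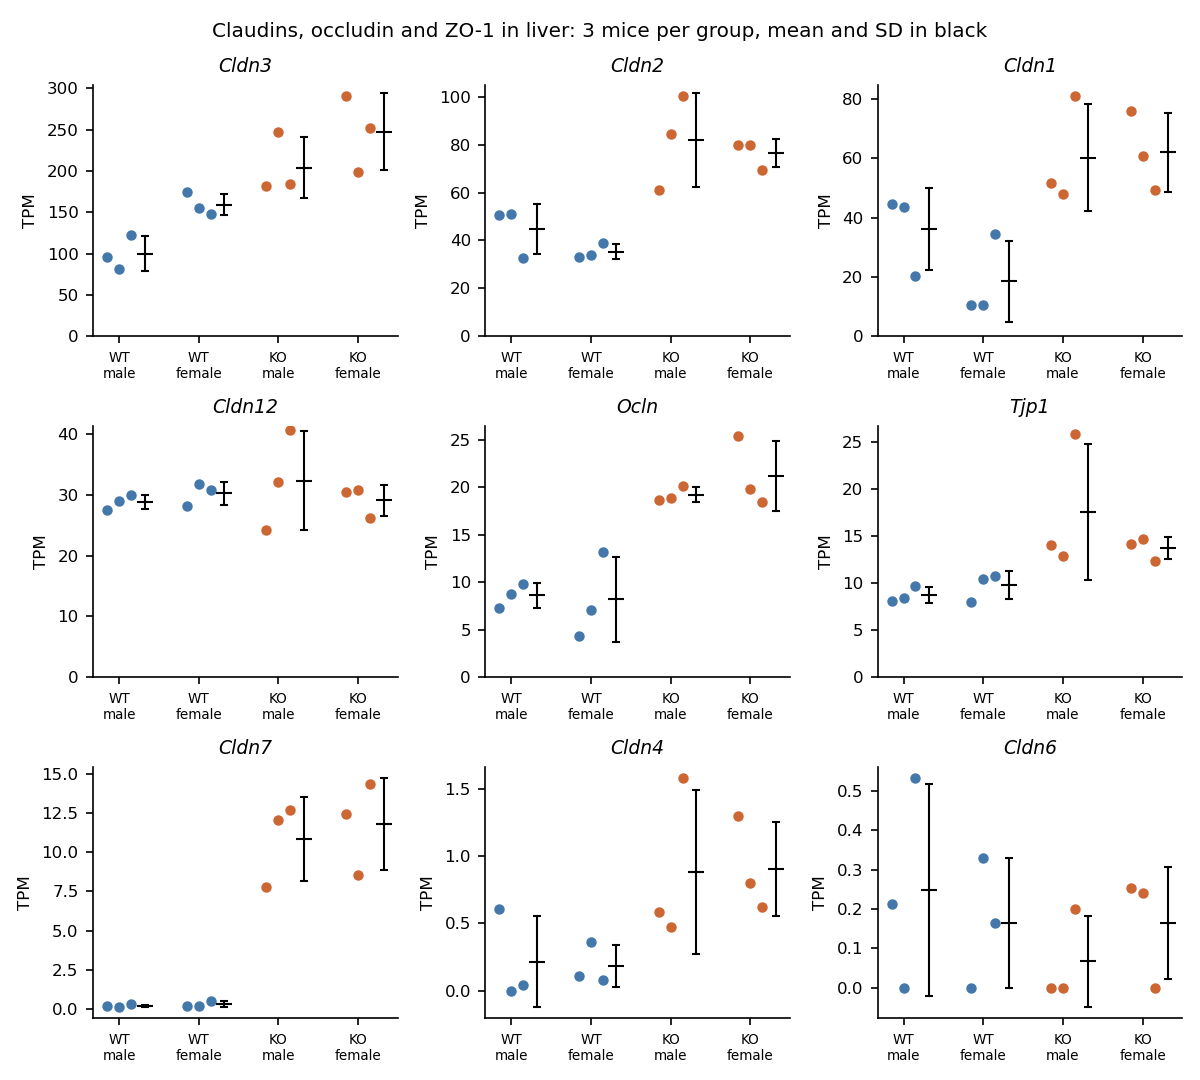
TPM of the 9 genes in each of the 12 livers (y axes in TPM, each from near 0; 3 mice per group as points, group mean with SD in black). The KO points of *Cldn7* sit between 7.81 and 14.4 TPM, all above the WT points, whereas those of *Cldn12* and *Cldn6* overlap the WT points.

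*Cldn3*, a sealing claudin of hepatocytes and cholangiocytes, was the most abundant claudin in every one of the 12 livers, and no other member's range reached it within a genotype. It lies in a single exon on chromosome 5 (GRCm38, chr5:134986214-134987472, plus strand), 39280 bases from *Cldn4*, and an antisense gene overlaps it, whose reads could be counted with it where strand was not used. The WT males had 96.4, 81.1 and 123 TPM and the WT females 174, 155 and 148 TPM. The KO males had 181, 247 and 184 TPM and the KO females 291, 199 and 252 TPM. Every KO liver lay above every WT liver, although the lowest KO value was close to the highest WT value. *Cldn3* rose by 0.82 (SE 0.14, limma adjusted p = 0.000316) on the log2(TPM + 1) scale and by 0.36 (SE 0.12, adjusted p = 0.0344) after rescaling. The rescaled call did not hold in 8 of the 12 fits that each left out 1 library, where the adjusted p ran up to 0.0715; it held without WT male 3, WT female 1, KO male 3 or KO female 2.

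*Cldn2*, the cation and water channel, was second in both genotypes, at 40.2 ± 8.67 TPM in WT and 79.2 ± 13.3 TPM in KO (SD, n = 6 each). Its values were 50.8, 51.2 and 32.9 TPM in WT males and 33.1, 34.0 and 39.1 TPM in WT females. They were 61.2, 84.5 and 100.2 TPM in KO males and 80.1, 79.7 and 69.6 TPM in KO females. The groups did not overlap on the deposited scale and overlapped after rescaling. *Cldn2* rose by 0.97 (SE 0.14, limma adjusted p = 8.38e-05), and by 0.51 (SE 0.15, adjusted p = 0.0173) after rescaling, a call that held with any 1 library left out.

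*Cldn1*, a sealing claudin of canaliculi and bile ducts, varied widely among the WT mice. The WT males had 44.6, 43.5 and 20.3 TPM, and the WT females had 10.5, 10.7 and 34.3 TPM. The KO livers had 51.6, 48.0 and 81.0 TPM in males and 75.8, 60.7 and 49.3 TPM in females. All KO values lay above all WT values as deposited, and the means were 27.3 ± 15.6 TPM in WT and 61.1 ± 14.2 TPM in KO (SD, n = 6 each). *Cldn1* rose by 1.32 (SE 0.32, limma adjusted p = 0.00367) on the deposited scale. After rescaling the difference was 0.87 (SE 0.35, adjusted p = 0.0621), and the ranges overlapped. With 1 library left out the rescaled difference was 0.67 to 1.05, and limma called it in 4 of the 12 fits (adjusted p 0.0272 to 0.142).

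*Ocln*, the gene of occludin, was separated between the genotypes on both scales. It was 7.26, 8.76 and 9.86 TPM in WT males and 4.36, 7.08 and 13.1 TPM in WT females. In KO it was 18.6, 18.9 and 20.2 TPM in males and 25.4, 19.8 and 18.5 TPM in females. The KO males lay within a narrow span, and the WT females differed most among themselves. *Ocln* rose by 1.23 (SE 0.19, limma adjusted p = 0.000147), or 0.80 (SE 0.20, adjusted p = 0.00702) after rescaling. Its neighbour on chromosome 13, *Marveld2*, lies 43239 bases away and codes for tricellulin, an occludin relative at the corners where 3 cells meet. *Marveld2* had 4.04 to 7.63 TPM in WT and 10.7 to 17.9 TPM in KO.

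*Tjp1*, which codes for the scaffold ZO-1, was 8.06 to 10.8 TPM in WT (median 9.05) and 12.4 to 25.9 TPM in KO (median 14.1). The highest value was that of the third KO male, and the other 5 KO livers reached at most 14.7 TPM. *Tjp1* rose by 0.67 (SE 0.16, limma adjusted p = 0.00377) on the deposited scale. After rescaling the difference was 0.24 (SE 0.13, adjusted p = 0.173), so the call rests on the scale.

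*Cldn12*, an atypical claudin that lacks the usual tail for binding ZO proteins, was the steadiest member in WT at 29.5 ± 1.63 TPM (SD, n = 6) against 30.7 ± 5.67 TPM in KO. Its WT values ran from 27.5 to 31.8 TPM and its KO values from 24.3 to 40.6 TPM. The deposited TPM gave a difference of 0.04 (SE 0.12, limma adjusted p = 0.80). After rescaling all 6 KO livers lay below all 6 WT livers, as did 8.25% of all genes, and *Cldn12* fell by 0.41 (SE 0.10, adjusted p = 0.00402). That call held with any 1 library left out.

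**Figure D2:**
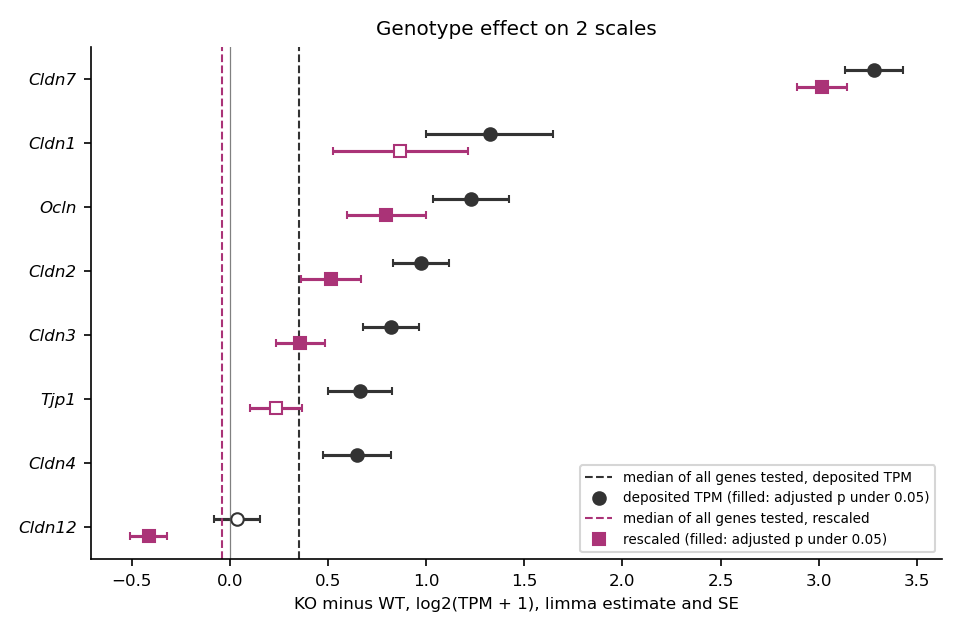
Genotype effect for the 8 tested members (x axis, KO minus WT in log2(TPM + 1), limma estimate with SE; circles on deposited TPM, squares after rescaling, filled where the adjusted p is under 0.05, dashed lines at the median of all genes tested). Each member sits further left after rescaling, *Cldn12* moves from 0.04 to -0.41, and *Cldn7* stays near 3; *Cldn4* was below the filter after rescaling.

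*Cldn7*, a claudin of ductal and other simple epithelia, was near the detection limit in WT livers and the eighth most abundant of the 12 claudin and junction genes ranked in KO. WT males had 0.187, 0.125 and 0.275 TPM and WT females had 0.199, 0.194 and 0.510 TPM, which were 3 to 14 reads per library. KO males had 7.81, 12.04 and 12.7 TPM and KO females had 12.5, 8.57 and 14.4 TPM, or 143 to 299 reads. The lowest KO value was many times the highest WT value, and the ratio of the mean TPM was 45.6. *Cldn7* rose by 3.28 (SE 0.15, limma adjusted p = 2.06e-09) on the log2(TPM + 1) scale, which understates a change from so low a start, and by 3.01 (SE 0.13, adjusted p = 3.22e-09) after rescaling. A fit by limma voom to the recovered reads gave 4.98 (SE 0.39, adjusted p = 6.11e-07). *Cldn7* met the cut for testing only through its KO values.

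*Cldn4*, the ductal claudin that lies next to *Cldn3*, stayed low in both genotypes. WT males had 0.602, 0 and 0.0421 TPM and WT females 0.107, 0.364 and 0.0782 TPM (0 to 12 reads), against 0.586, 0.472 and 1.58 TPM in KO males and 1.29, 0.800 and 0.619 TPM in KO females (8 to 27 reads). The ranges overlapped through the first WT male. *Cldn4* rose by 0.65 (SE 0.17, limma adjusted p = 0.00592) on the deposited scale and by 2.26 (SE 0.63, adjusted p = 0.0117) by limma voom on the recovered reads. In both fits *Cldn4* met the cut for testing only through its KO values. Its WT mean was 0.199 TPM, and its summed reads were 24 in WT and 96 in KO. A gene so admitted could hardly be called lower, so these calls add little to the levels themselves. An exact permutation test within the sexes, two-sided, gave p = 0.015, where 0.005 is the smallest p these groups allow.

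*Cldn6*, of embryonic epithelia, had 0 to 0.534 TPM in WT (0 to 12 reads) and 0 to 0.253 TPM in KO (0 to 5 reads). It was at 0 in 2 WT and 3 KO livers and was not tested.

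The authors' deposited table gives its own KO against WT comparison, and fewer members passed in it. In the authors' deposited table *Cldn7* had a log2 fold change of 5.09 and *Ocln* of 0.82, both with an FDR p listed as 0. There *Cldn3* had 0.62 with an FDR p of 0.01 and *Cldn12* -0.47 with an FDR p of 0.02. In the authors' deposited table *Cldn2* had 0.30 with an FDR p of 0.23, so its call on both scales here was not shared. The authors' deposited table also gave *Cldn1* 0.46 (FDR p of 0.32), *Tjp1* 0.25 (0.39), *Cldn4* 1.61 (0.08) and *Cldn6* -0.67 (0.71). The method behind that table is not given in the sources used here.

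The promoter windows of *Cldn7*, *Cldn2*, *Cldn3* and *Ocln* are shown because these members were higher on both scales. They are RefSeq windows on GRCm38.p6, 250 bases before to 50 after a transcript start, read 5′ to 3′ along the gene. Capitals mark matches on either strand to GGAATG (the TEAD motif, TEAD being the DNA-binding partners of YAP1), CAGGTG (an E-box bound by epithelial repressors such as Snail), AACNNGTT (Grainyhead-like) or TGANTCA (AP-1). *Cldn7* has 2 windows, chr11:69964529-69964828 and chr11:69965171-69965470, both on the plus strand. For *Ocln* the first of 2 overlapping windows is shown. The others are chrX:139800558-139800857 on plus, chr5:134985964-134986263 on plus and chr13:100552449-100552748 on minus.
*Cldn7* first window: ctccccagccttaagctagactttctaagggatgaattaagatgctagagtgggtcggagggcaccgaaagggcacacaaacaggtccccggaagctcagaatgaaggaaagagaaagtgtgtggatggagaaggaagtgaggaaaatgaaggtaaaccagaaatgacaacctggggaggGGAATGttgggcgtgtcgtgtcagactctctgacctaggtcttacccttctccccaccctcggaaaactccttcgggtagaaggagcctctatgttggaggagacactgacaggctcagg
*Cldn7* second window: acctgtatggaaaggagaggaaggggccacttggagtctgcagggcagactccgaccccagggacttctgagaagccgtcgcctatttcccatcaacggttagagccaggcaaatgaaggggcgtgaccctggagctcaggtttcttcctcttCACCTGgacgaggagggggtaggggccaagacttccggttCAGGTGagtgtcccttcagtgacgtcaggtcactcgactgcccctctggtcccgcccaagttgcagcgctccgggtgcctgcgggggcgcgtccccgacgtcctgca
*Cldn2*: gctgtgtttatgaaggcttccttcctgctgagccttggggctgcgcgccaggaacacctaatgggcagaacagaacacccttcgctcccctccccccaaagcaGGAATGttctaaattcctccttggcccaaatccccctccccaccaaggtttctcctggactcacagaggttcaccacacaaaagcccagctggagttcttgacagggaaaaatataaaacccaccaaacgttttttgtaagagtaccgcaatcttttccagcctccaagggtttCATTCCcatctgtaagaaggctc
*Cldn3*: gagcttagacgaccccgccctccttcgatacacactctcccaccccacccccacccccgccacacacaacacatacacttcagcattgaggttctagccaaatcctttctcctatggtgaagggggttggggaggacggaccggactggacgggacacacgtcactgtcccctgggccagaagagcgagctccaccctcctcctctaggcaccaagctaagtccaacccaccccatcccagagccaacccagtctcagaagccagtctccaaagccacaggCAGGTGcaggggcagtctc
*Ocln*: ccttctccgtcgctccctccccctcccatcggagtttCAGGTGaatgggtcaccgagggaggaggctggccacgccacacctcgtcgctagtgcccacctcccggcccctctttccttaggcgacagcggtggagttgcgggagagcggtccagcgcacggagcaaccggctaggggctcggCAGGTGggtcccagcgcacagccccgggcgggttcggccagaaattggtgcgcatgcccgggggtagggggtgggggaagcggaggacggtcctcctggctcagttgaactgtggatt

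The TEAD letters stand at base 181 of the first *Cldn7* window and at bases 104 and 278 of the *Cldn2* window. The second *Cldn7* window has 2 E-box matches in place of a TEAD match, as does the *Ocln* window shown, and *Cldn3* has 1 E-box match after its start. Over the 13 windows of the 9 members, some of which overlap, TEAD letters were in 3 windows (*Cldn2*, *Cldn6* and *Cldn7*), against 14.7% of 32851 windows of all genes. E-box letters were in 6 windows, of *Cldn3*, *Cldn4*, *Cldn6*, *Cldn7* and *Ocln*, against 20.2% of all windows. AP-1 letters were in 1 window, that of *Cldn4* (7.8% of all), and Grainyhead letters in 0 (4.2% of all). A match describes the letters and no binding was measured.

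The make-up of the claudin pool was compared as shares, which do not depend on the scaling between libraries. TPM summed over the 32 claudins of the table was 221 to 268 in WT and 349 to 523 in KO. *Cldn3* made up 52.4 ± 11.6% of it in WT and 52.2 ± 6.07% in KO (SD, n = 6 each), and *Cldn2* 16.6 ± 4.39% and 18.4 ± 2.69%. *Cldn1* was 11.4 ± 6.83% of the pool in WT and 14.2 ± 2.72% in KO, with overlapping ranges. The share of *Cldn12* was 12.1 ± 1.08% in WT and 7.15 ± 1.21% in KO, and its ranges did not overlap. The share of *Cldn7* was 0.10 ± 0.0496% in WT and 2.61 ± 0.441% in KO, also without overlap. For each TPM of *Cldn12* there were 1.07 to 1.85 TPM of *Cldn2* in WT and 2.47 to 2.66 TPM in KO, a narrow span among the KO livers.

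**Figure D3:**
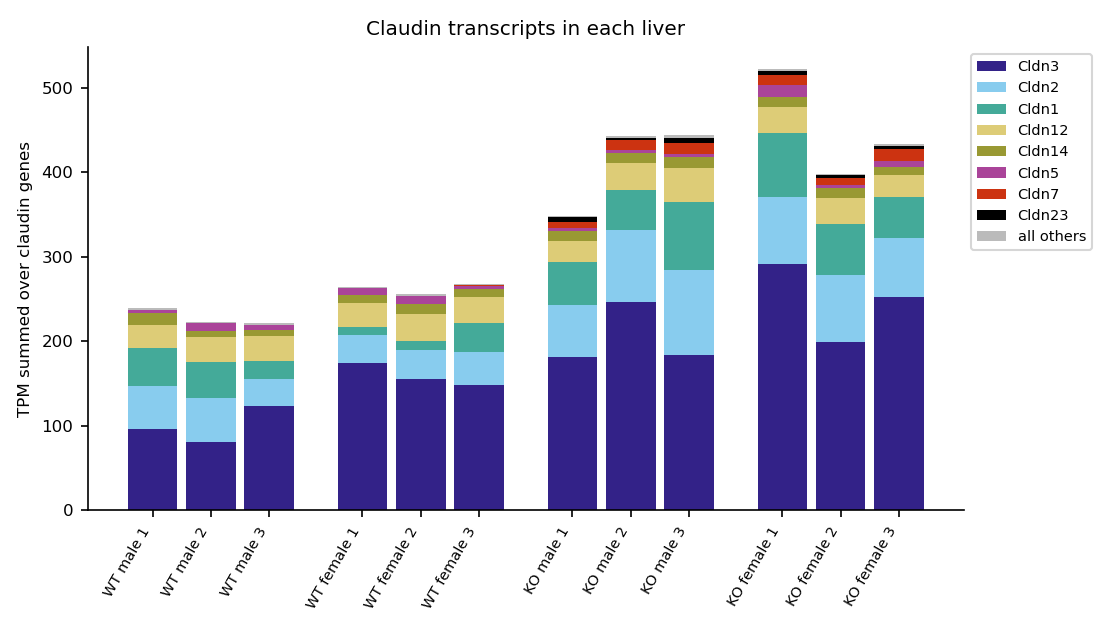
TPM summed over claudin genes in each liver (y axis in TPM, 1 bar per mouse, stacked by gene). *Cldn3* fills about the same share of the WT and KO bars (52.4% and 52.2% on average), the bars are taller in KO (349 to 523 against 221 to 268 TPM), and *Cldn7* and *Cldn23* are visible in KO.

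The order of the levels was much the same in both genotypes at the top. In WT, *Cldn3* lay above *Cldn2* and *Cldn2* above *Cldn12* with no overlap of ranges, whereas *Cldn12* and *Cldn1* overlapped, as did *Tjp1* and *Ocln*, and *Cldn7*, *Cldn6* and *Cldn4* were at the bottom with overlapping ranges. In KO, *Cldn1* overlapped *Cldn2* and lay above *Cldn12*, and *Cldn7* overlapped *Cldn14* in place of *Cldn6* and *Cldn4*.

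Among the other claudins, 3 had a mean of at least 0.5 TPM. *Cldn23*, an epithelial claudin, was listed at 0 in all 6 WT livers and was 5.18, 3.13 and 6.71 TPM in KO males and 4.28, 2.92 and 4.00 TPM in KO females, on 52 to 108 reads. It was higher in KO on both scales (limma adjusted p = 4.04e-08 deposited and 4.88e-08 rescaled), and it met the cut for testing only through its KO values. *Cldn14* was 7.17 to 13.6 TPM in WT and 8.76 to 13.01 TPM in KO (difference 0.23, limma adjusted p = 0.234), and its sign turned after rescaling (-0.20, adjusted p = 0.278). *Cldn5*, the claudin of endothelium, was 3.96 to 9.72 TPM in WT and 2.65 to 13.3 TPM in KO (difference -0.34, limma adjusted p = 0.334, and -0.73, adjusted p = 0.0675, after rescaling), and in males it differed by -0.82 (adjusted p = 0.0844) as deposited and fell by 1.29 (adjusted p = 0.0216) after rescaling. In females *Cldn5* differed by 0.15 (limma adjusted p = 0.795) and -0.16 (adjusted p = 0.785), and the interaction did not pass on either scale (adjusted p = 0.618 and 0.653), so the sexes were not shown to differ. The endothelial markers *Pecam1* and *Cdh5* differed by 0.30 (limma adjusted p = 0.257) and 0.88 (adjusted p = 0.00822). After rescaling they differed by -0.10 (adjusted p = 0.739) and 0.46 (adjusted p = 0.126). Of the 7 endothelial markers, 2 were higher and 1 lower on the deposited scale (50.1% and 4.82% of all genes). After rescaling 1 was higher and 2 lower (20.6% and 18.8% of all genes). The one lower on both scales, named after its values were seen, was the VEGF receptor *Kdr*, which fell by 0.62 (limma adjusted p = 0.0441) and by 1.02 after rescaling (adjusted p = 0.00306). *Cldn8*, named after its values were seen, had 0.0400 to 0.617 TPM in WT (1 to 15 reads) and was listed at 0 in all KO livers. A further 12 claudins were listed at 0 in every liver.

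The ductal claudins were set beside markers of bile duct cells. *Epcam*, an adhesion protein of cholangiocytes, had 0.593 to 1.55 TPM in WT (16 to 48 reads) and 0.339 to 0.756 TPM in KO (7 to 16 reads). It fell by 0.35 (SE 0.13, limma adjusted p = 0.0312) as deposited and by 0.53 (adjusted p = 0.00571) after rescaling. The limma call on the deposited scale passed in only 4 of the 12 fits that left out 1 library (those without WT male 3, WT female 1, KO male 2 or KO female 2), with adjusted p up to 0.0762, and the rescaled call passed in all 12. At so low a level log2(TPM + 1) understates a change. By limma voom on the recovered reads *Epcam* differed by -1.32 (adjusted p = 0.00832), and the authors' deposited table gave -1.38 (FDR p of 0.02). The keratin *Krt19* had 0.738 to 2.26 TPM in WT (12 to 46 reads) and 0.0552 to 2.17 TPM in KO (1 to 33 reads). Its difference was -0.12 (limma adjusted p = 0.707), -0.36 after rescaling (adjusted p = 0.269) and -1.04 by limma voom (adjusted p = 0.22). The authors' deposited table gave *Krt19* -1.50 with an FDR p of 0.02, a call not shared by the fits here. *Krt7* stayed at or below 0.628 TPM everywhere. The ratio of *Cldn7* to *Epcam* TPM was 0.130 to 0.464 in WT and 11.3 to 34.8 in KO, and it rested on the few *Epcam* reads given above. Other genes of the duct list were higher in KO: *Sox9*, a transcription factor, rose by 1.57 (limma adjusted p = 0.000158) and the secreted *Spp1* by 3.76 (adjusted p = 3.73e-07), and both passed after rescaling (1.17 and 3.31). Of the 11 duct markers, 8 were tested, and 5 rose and 1 fell on the deposited scale (50.1% and 4.82% of all genes). After rescaling 4 rose and 1 fell (20.6% and 18.8% of all genes). The summed level of the 11 duct markers was 106 to 195 TPM in WT and 700 to 1328 TPM in KO. Without *Spp1* and *Tm4sf4* it was 14.3 to 19.4 and 26.7 to 44.5 TPM. The summed leukocyte markers also differed without overlap, at 15.7 to 41.5 TPM in WT and 68.6 to 133 TPM in KO. Of these 7 markers, 5 were higher on each scale (50.1% of all genes deposited and 20.6% rescaled). Of the mesenchymal markers (summed 56.9 to 156 TPM in WT and 116 to 290 TPM in KO), 4 of 7 were higher as deposited (50.1% of all genes). After rescaling 2 were higher and 1 lower (20.6% and 18.8% of all genes). The summed hepatocyte markers, most of them *Alb*, overlapped. Of the 8 hepatocyte markers, 3 were higher and 1 lower on the deposited scale (50.1% and 4.82% of all genes). After rescaling 2 were lower (18.8% of all genes) and the other 6 did not pass. Named after their values were seen, the 2 were the transport proteins *Ttr*, at 5478 to 9861 TPM in WT and 2105 to 4628 TPM in KO (-1.10, limma adjusted p = 0.000334, and -1.57 rescaled), and *Alb* (-0.27, adjusted p = 0.186, and -0.74 rescaled, adjusted p = 0.00755). The ranges also overlapped for the endothelial (27.1 to 36.9 and 20.7 to 68.9 TPM), mesothelial (0.488 to 7.25 and 3.27 to 12.01 TPM) and exocrine pancreas sums (12.05 to 26.9 and 7.21 to 14.7 TPM). Of the 4 mesothelial markers, 3 were higher on the deposited scale (50.1% of all genes) and 2 after rescaling (20.6% of all genes). *Wt1*, a transcription factor of mesothelium named after its values were seen, was 0.0271 to 0.739 TPM in WT and 1.08 to 2.40 TPM in KO. It rose by 1.25 (limma adjusted p = 5.26e-06), or 1.07 rescaled (adjusted p = 3.93e-05). By limma voom on the recovered reads, which lacks the compression of log2(TPM + 1) at low levels, it rose by 3.03 (adjusted p = 0.000286). *Wt1* met the cut for testing only through its KO values (WT mean 0.220 TPM). Of the 5 pancreas markers, 4 were too low to test, and *Cela1*, an elastase, fell by 0.74 (limma adjusted p = 0.0129) and by 1.17 after rescaling (adjusted p = 0.00161). The part of these markers in the claudin differences was not tested.

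**Figure D4:**
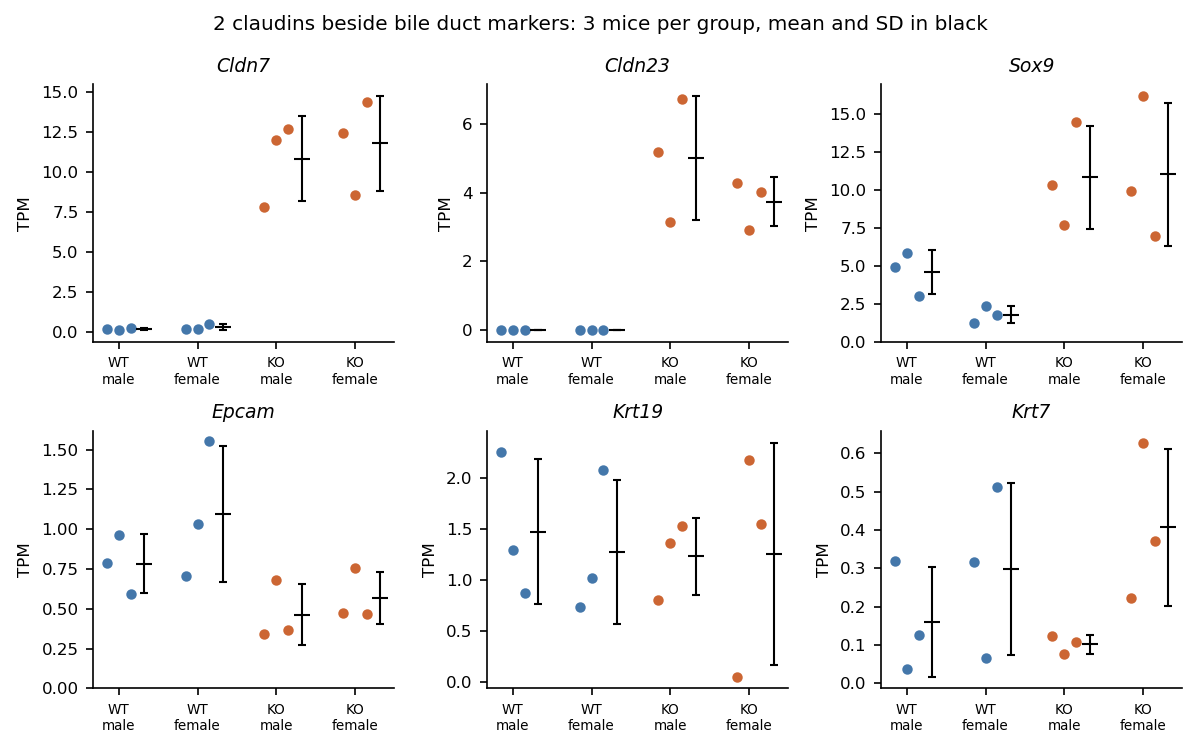
TPM of *Cldn7* and *Cldn23* beside the duct markers *Sox9*, *Epcam*, *Krt19* and *Krt7* (y axes in TPM, 3 mice per group as points, mean with SD in black). *Cldn7* and *Cldn23* are high in the KO groups, whereas *Epcam* is 0.339 to 0.756 TPM there and *Krt19* overlaps between genotypes.

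The sexes were compared within each genotype and the genotypes within each sex. In males, *Cldn7*, *Cldn3*, *Cldn2*, *Ocln* and *Tjp1* rose on the deposited scale, 5 of 8 tested where 43.3% of all genes were called higher. After rescaling, *Cldn7* alone of 7 was higher (13.7% of all genes) and *Cldn12* was lower (10.3% of all genes), by -0.43 (SE 0.14, limma adjusted p = 0.0444). In females, *Cldn7*, *Cldn1*, *Ocln*, *Cldn2* and *Cldn3* rose, again 5 of 8 (29.1% of all genes). After rescaling 4 of the 7 rose in females (15% of all genes): *Cldn7*, *Cldn1*, *Ocln* and *Cldn2*. The female *Cldn3* call (0.62, limma adjusted p = 0.0235) was lost in 4 of the 12 fits with 1 library left out, those without WT female 2 or 3 or KO female 1 or 3, at an adjusted p of up to 0.0964.

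*Cldn1* had the widest gap between the sexes. Its genotype difference was 1.89 in females (SE 0.41, limma adjusted p = 0.00375) and 0.76 in males (SE 0.41, adjusted p = 0.144). The test of that gap itself, the interaction, was -1.12 (SE 0.58, adjusted p = 0.609), so the sexes were not shown to differ. *Cldn7* differed by 3.28 in each sex. The interaction test of limma called 0 members on either scale, where 0.912% of all genes were called on the deposited scale and 0.843% after rescaling. By voom on the recovered reads the count was also 0 (0.542% of all genes). At an unadjusted p under 0.05 it was 0 on the deposited scale and 1, *Cldn1*, after rescaling and by voom.

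In WT livers the sex test called 0 of the 8 members (5.74% of all genes), and *Cldn1* and *Cldn3* came closest. *Cldn3* was lower in WT males than in WT females without overlap (male minus female -0.68, SE 0.19, limma adjusted p = 0.0541), and *Cldn1* was higher in males by 1.07 (SE 0.41, adjusted p = 0.136), with ranges that overlapped. Of the WT mice, 1 of each sex decided the *Cldn1* call: without male 3 the adjusted p was 0.0411, and without female 3 it was 0.0218. *Cldn3* passed without WT male 3 (adjusted p = 0.0169), and without the first or the second KO female (0.0499 and 0.0438). In KO livers the sex test called 0 members (0.0814% of all genes), with differences from -0.28 for *Cldn3* to 0.27 for *Tjp1*. After rescaling limma also called 0 members in WT (4.39% of all genes) and in KO (0.0819%), as did voom on the recovered reads (3.69% and 0.0465%). At an unadjusted p under 0.05 there were 2 members in WT on the deposited scale, *Cldn1* and *Cldn3*, and 3 after rescaling and by voom, which added *Cldn2*. In KO there were 0 in all of these fits.

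The remaining junction genes were counted from lists of known components. Of 11 other membrane proteins of tight junctions, 10 were tested, 7 rose on the deposited scale (50.1% of all genes) and 5 after rescaling (20.6% of all genes), and the others did not pass (median log2 difference 1.01 and 0.61). *Cxadr*, a virus receptor and adhesion protein, rose by 2.01 (1.56 rescaled), *Marveld2* by 1.46 (1.04), *Lsr*, the angulin that recruits tricellulin, by 1.38 (0.91), and *F11r*, the gene of JAM-A, by 1.26 (0.80). Of 22 scaffold and polarity genes, 20 were tested, 13 rose on the deposited scale (50.1% of all genes), and 8 rose and 3 fell after rescaling (20.6% and 18.8% of all genes; median 0.47 and 0.04). The ZO-3 gene *Tjp3* rose by 2.37 (1.92 rescaled), the junctional exchange factor *Arhgef2* by 1.84 (1.53) and cingulin (*Cgn*) by 1.52 (1.08). *Tjp3* passed on both scales and its relative *Tjp1* on the deposited scale only; the difference between them was not tested. *Tjp3* had 4.60 to 23.2 TPM in WT and 40.3 to 89.4 TPM in KO.

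Of 17 genes of adherens junctions, desmosomes and gap junctions, 14 rose on the deposited scale (50.1% of all genes), and 8 rose and 2 fell after rescaling (20.6% and 18.8% of all genes; median 0.65 and 0.20). E-cadherin (*Cdh1*) rose by 1.85 (1.40 rescaled), *Nectin1* by 1.29 (0.84), desmoplakin (*Dsp*) by 1.17 (0.73) and *Nectin2* by 1.11 (0.66). The 2 that were lower after rescaling, named after their values were seen, were *Nectin3* and the hepatocyte connexin *Gjb1*, at -0.51 and -0.55. The rescaled differences named for these lists all passed in limma, with adjusted p of at most 0.00635, and the deposited ones of *Nectin3* and *Gjb1* did not pass (-0.11 and -0.08). An opposite-strand neighbour expressed in these livers overlaps *Cxadr* and *Tjp3*, so their counts are less certain where strand was not used.

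**Figure D5:**
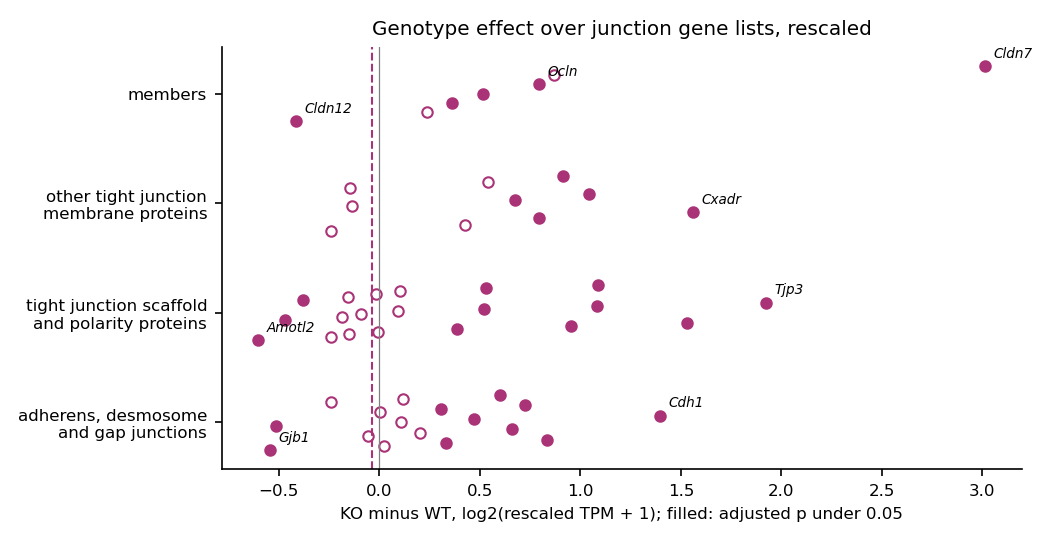
Genotype effect after rescaling for the members and 3 lists of junction genes (x axis, KO minus WT in log2(rescaled TPM + 1); 1 point per gene, filled where the adjusted p is under 0.05; vertical jitter carries no meaning; dashed line at the median of all genes, -0.04). *Cldn7* at 3.01 lies furthest right, and *Cldn12*, *Amotl2*, *Nectin3* and *Gjb1* are among the filled points left of 0.

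Across the 12 livers, the pattern of each member was matched with all tested genes by Pearson's r of log2(TPM + 1), as a description over samples that share the genotype split. *Cldn7* was most like *Ifnlr1* (r = 0.996), *Npdc1* (0.994) and *Prr15l* (0.993). The genes nearest *Cldn1*, *Cldn2* and *Cldn3* were *Stra6l* (0.979), *Mypop* (0.982) and *Nagk* (0.987). Those nearest *Ocln*, *Tjp1*, *Cldn4* and *Cldn12* were *Dlg5* (0.970), *Trrap* (0.978), *Dnmt3b* (0.960) and *Mblac2* (0.923). Once the 4 group means were removed, the residual r of *Cldn1* and *Cldn2* was 0.71 (n = 12; 0.72 after rescaling, and 0.58 to 0.84 with 1 library left out). That of *Cldn12* and *Tjp1* was 0.80, and it rested on the third KO male, where both genes were highest: it was 0.39 without that mouse and 0.65 after rescaling. *Cldn1* and *Cldn3* had a residual r of -0.45, which was -0.24 without the third WT male. These alternatives were added after seeing the data.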

How the data were processed

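RNA sequencing of 12 whole livers gave 1 deposited table with TPM for 25676 genes, 1 column per mouse, made by the authors per the file headers, with every column summing to 1000000. The table also held the authors' fold change, log2 fold change and FDR p-value of KO against WT, per the file headers, and those are quoted only as theirs. The submitters' processing notes name GRCm38 and edgeR without a role; aligner, counter and use of strand are not given in the sources used here. Groups came from sample titles, which number the animals individually, and 0 sample columns were left unmatched.

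The 12278 genes whose TPM averaged 0.5 or more entered limma 3.58.1 (R 4.3.3) as log2(TPM + 1), with moderated variances that follow expression level. The genotype model held sex as a covariate, and the other comparisons came from 1 model of the 4 group means. Two-sided tests were adjusted by Benjamini-Hochberg across every gene tested, with a threshold of 0.05. P-values measure the spread between mice. Replicate numbers follow accession order and pair no mice. TPM divided by median-of-ratios size factors (0.724 to 1.34) were fitted likewise. Since each gene's TPM were whole multiples of 1 step, reads were recovered for all 17332 genes above 0 (tolerance 0.02 reads); a gene whose reads share a factor is understated. These reads were fitted with limma voom for genes with a mean of at least 10 reads, a choice made after seeing the data. Within a group, pairs of libraries differed beyond counting error (chi-square per degree of freedom 26.6 to 137), so all 12 were kept. The limma step was tested on simulated data. Positions are from GENCODE M21 (GRCm38), promoters from RefSeq (GRCm38.p6), which covered all 9 members.

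The members, gene lists and tests were chosen with earlier results of these data known. Genes named are the 9 members, *Yap1*, other claudins with a mean of at least 0.5 TPM, the 4 largest differences in each direction of 3 junction lists that passed on both scales (no falls did), some cell type markers, and the 3 genes most correlated with each member; other genes are said to be chosen later. A gene that this rule names is not reported here. Alternatives were another pseudocount, filters, scalings, no trend, no sex covariate, exact permutation, and leaving out mice.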

Additional observations from a re-analysis of the deposited data

Results flagged for a closer look

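In 64 genotype groups of 6 mice over 33 genes, the highest or lowest mouse was checked for an unusually wide gap to the next mouse, by Dixon's criterion. Chance gives about 1 in 20 groups, and 8 were found. Of the members, *Ocln* in the first KO female (25.4 TPM) and *Tjp1* in the third KO male (25.9 TPM) stood above the other 5 KO livers. The third KO male also stood above the other KO livers for *Tjp3* (89.4 TPM), *Cgn* (41.8 TPM), *Cdh1* (135.6 TPM) and *Dsp* (56.6 TPM). Its size factor was 1.34, the highest of the 12 libraries. Without that mouse, *Tjp1* rose by 0.51 on the deposited scale, the lowest value over the 12 fits that left out 1 library, and limma still called it. *Marveld2* in the third WT male (7.63 TPM) and *Cldn8* in the first WT female (0.617 TPM) stood above the other WT livers. In the interaction test no member or other gene checked here passed.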

How the results depend on the processing

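No paired analysis was possible because the labels give no replicate numbers, and numbers in accession order pair no mice. The scaling between libraries mattered most, and the cause was not tested. With median-of-ratios rescaling, 4 members were called higher and 1 lower by genotype (with 1 library left out, 3 to 4 higher and 1 lower; genes called were 4166 to 4987, among them 4281, 4341, 4342, 4390, 4403 and 4440 without KO female 3, KO male 1, WT female 1, WT male 3, KO female 1 and WT female 3); in males 1 was higher and 1 lower, of 2932 genes called. With voom on the recovered reads, 1 member was lower by genotype, and in males 1 was higher and 1 lower, of 2961 genes called. *Cldn12*, level on the deposited scale (0.04), was below 0 under the other scaling, which moved the other members down too: -0.41 after rescaling (-0.45 to -0.36 with 1 library left out, including -0.38, -0.39, -0.40 and -0.42) and -0.43 by voom, and in males -0.43 and -0.44. Voom called 70 genes in the interaction and 6 in the KO sex test, against 112 and 10. In the WT sex test, 1 member was lower with a pseudocount of 0.1 or without the 20 most abundant genes, and 1 was higher without the 2 animals of low number (KO female 1 and WT female 3, whose numbers in the titles lie far below the others), a fit that called 458 genes against 705. Leaving out 1 library gave 0 to 1 member higher, 0 to 1 lower and 290 to 1696 genes called there, the highest without the third WT male and each other WT library giving fewer than 705; it gave 75 to 176 genes in the interaction (highest without the third WT male) and 6 to 10 in the KO sex test (6 without the second KO male). Without the 2 animals of low number, *Cldn3* in females lost its call (0.44, limma adjusted p = 0.20), as did *Epcam* by genotype (-0.26, adjusted p = 0.12), and *Cldn5* by genotype gained one (-0.71, adjusted p = 0.0139). On the deposited scale the genotype calls of *Cldn1*, *Cldn2*, *Cldn3*, *Cldn7*, *Ocln* and *Tjp1* held with any 1 library left out, and *Cldn4* in the 10 fits where it passed the filter. With so few reads, *Cldn4* and *Cldn6* are limited by depth. The mean shares of *Cldn1*, *Cldn2*, *Cldn3*, *Cldn7* and *Cldn12* in the claudin pool moved by less than 1 SD with any 1 library left out and with only the claudins among the members in the sum.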

Other observations

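Of the scaffold and polarity genes, 3 were lower in KO after rescaling and by voom on the recovered reads, and are named after their values were seen: the angiomotin relative *Amotl2*, which binds YAP1 (-0.60, limma adjusted p = 0.00203), the PDZ scaffold *Mpdz* (-0.47, adjusted p = 0.0103) and the atypical protein kinase C *Prkcz* (-0.38, adjusted p = 0.0362). Their deposited differences were -0.19, -0.08 and 0.02, none of which passed. With *Cldn12*, *Nectin3* and *Gjb1* they are the junction genes of these lists that were lower on 1 scale and did not pass on the other.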
